A study of Mus musculus with 24 samples.

Results

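The interaction of PPARα loss with diet in mouse liver was measured as the difference between 2 differences, (high-fat LPKO minus high-fat WT) minus (regular-diet LPKO minus regular-diet WT), on log2(TPM + 1), gene by gene. TPM states the share of a library's transcripts that a gene takes, after correction for transcript length. All 12 libraries of these 4 groups were used, out of 24 in the series, and 10551 of the 34945 named genes were tested, those with a mean of at least 1 TPM over the 24 libraries. A positive interaction means that the LPKO over WT ratio was higher on the high-fat diet than on the regular diet. It can come from a change in any of the 4 groups, so each gene is given below by its level in every library.

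The series measured liver mRNA of 4 genotypes on 2 diets, with 3 libraries in each of the 8 groups. High-fat LPKO livers carried PPARα-/- and had 3 weeks of the high-fat diet. High-fat WT livers carried FoxO1lox/lox; PPARαlox/lox, with no Cre named in their label, and had the same diet for 3 weeks. Regular-diet LPKO and regular-diet WT livers had the same genotypes on regular diet, and all groups were collected after a 4 h fast. Deletion was made with an Albumin-Cre transgene, which is active in hepatocytes, so other liver cells were expected to keep the floxed alleles. The other 12 libraries repeat the layout without FoxO1: LFPKO livers, which lack both factors by label, and LFKO livers (FoxO1-/-). The labels do not give age or sex and do not say that the libraries of a group came from separate mice, so the p-values measure only the spread between these samples.

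PPARα is a nuclear receptor that fatty acids activate. It pairs with RXR on DNA, at repeats of a site spelled AGGTCA, and in fasted liver it turns on genes for fatty acid uptake, oxidation and ketone body synthesis. Cholesterol synthesis is controlled separately, by SREBP-2, a membrane-bound factor that is released and enters the nucleus when cell sterols are low. Its target promoters hold sterol regulatory elements and often CCAAT boxes, where NF-Y binds.

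Ppara had 84.3, 87.3 and 70.9 TPM in high-fat LPKO livers, against 47.6, 44.2 and 37.1 TPM in high-fat WT livers, and 70.1, 64.6 and 63.4 TPM in regular-diet LPKO livers, against 54.8, 48.4 and 56.1 TPM in regular-diet WT livers. Every library labelled LPKO was therefore above every WT library on the same diet. The values cover the whole gene on chromosome 15 and the labels do not say which part was deleted, so Ppara TPM is no check of the deletion, and the groups below are those named by the labels. Foxo1 had 9.37, 9.94 and 5.53 TPM in high-fat LPKO livers, 4.74, 5.52 and 4.06 TPM in high-fat WT livers, 4.22, 4.30 and 4.71 TPM in regular-diet LPKO livers, and 4.54, 4.14 and 4.25 TPM in regular-diet WT livers. Neither passed for the interaction (adjusted p = 0.343 for Ppara and 0.315 for Foxo1), while on the high-fat diet Ppara was higher in LPKO by 0.90 on the log2 scale (SE 0.14, adjusted p = 5.08e-04) and Foxo1 by 0.66 (SE 0.14, adjusted p = 0.0107).

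All 11 hepatocyte markers in the table were detected and tested, and none was at 0. Libraries of a group correlated between 0.979 and 0.989 in these 12, and each had between 9749 and 10937 genes at 1 TPM or more. TPM keep no read counts, so the depth is unknown. The share of TPM taken by major urinary protein (Mup) genes was 12.5% to 26.1% in high-fat LPKO, 20.1% to 30.7% in high-fat WT, 10.4% to 14.4% in regular-diet LPKO and 7.99% to 11.7% in regular-diet WT libraries. High-fat LPKO replicate 3 and high-fat WT replicate 2, with the highest Mup share of their groups, stood apart from the other libraries of their groups on the first principal component.

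The interaction passed an adjusted p of 0.05 for 18 of 10551 genes (0.171%), of which 12 were higher (0.114%) and 6 lower (0.0569%). The 12 were Gm3787, Nat8, Aqp4, Fdps, Idi1, Sqle, Cyp51, Nrp2, Nsdhl, Fpgs, Mtnr1a and Clpx, and the 6 were Ces4a, Mmp15, Cd276, Tgm1, Fkbp11 and Nectin2. The split depended on the scaling: it was 26 higher and 23 lower after rescaling by median-of-ratios size factors and 23 higher and 27 lower with Mup and mitochondrial transcripts taken out, and with only the 4 compared groups in the fit it was 6 higher and 8 lower. Without an adjustment 852 genes (8.08%) were under 0.05. Leaving out 1 library at a time moved the count by over 1.5 times in 15 of 24 fits. It was 60 without high-fat LPKO replicate 3 and 29 without regular-diet WT replicate 1. It was 3 and 7 without regular-diet LPKO replicates 1 and 3, 5 and 9 without high-fat LPKO replicates 1 and 2, 7, 4 and 9 without high-fat WT replicates 1, 2 and 3, and 8 and 6 without regular-diet WT replicates 2 and 3. Libraries outside the comparison moved it through the shared estimate of spread, to 11 and 9 without regular-diet LFKO replicates 1 and 2 and to 9 without regular-diet LFPKO replicate 3 or high-fat LFKO replicate 2. Cyp51, Nsdhl and Nrp2 were called in 24 of these 24 fits, and the others in fewer. Cd276 was called in 23, Fdps and Mmp15 in 21, Aqp4 in 17, Gm3787 in 13, Nectin2 in 12 and Fkbp11 in 11. Idi1 and Nat8 lay between 12 and 17. Sqle was called in 10, Clpx, Fpgs, Mtnr1a and Tgm1 in 8 and Ces4a in 6. Among the other alternatives that tested it, Mtnr1a was called in 2 of 7 and Ces4a in 6 of 9. None of the 18 genes changed sign in any alternative.

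In 10 of the 12 higher genes, high-fat WT livers had the lowest mean of the 4 groups. The same held for 4876 of the 6540 tested genes with a positive interaction, so that shape is common among them. The exceptions were Fpgs and Mtnr1a, which were lowest in regular-diet LPKO livers. Of the 6 lower genes, 4 were highest in regular-diet LPKO and 2 in high-fat WT.

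**Figure D1:**
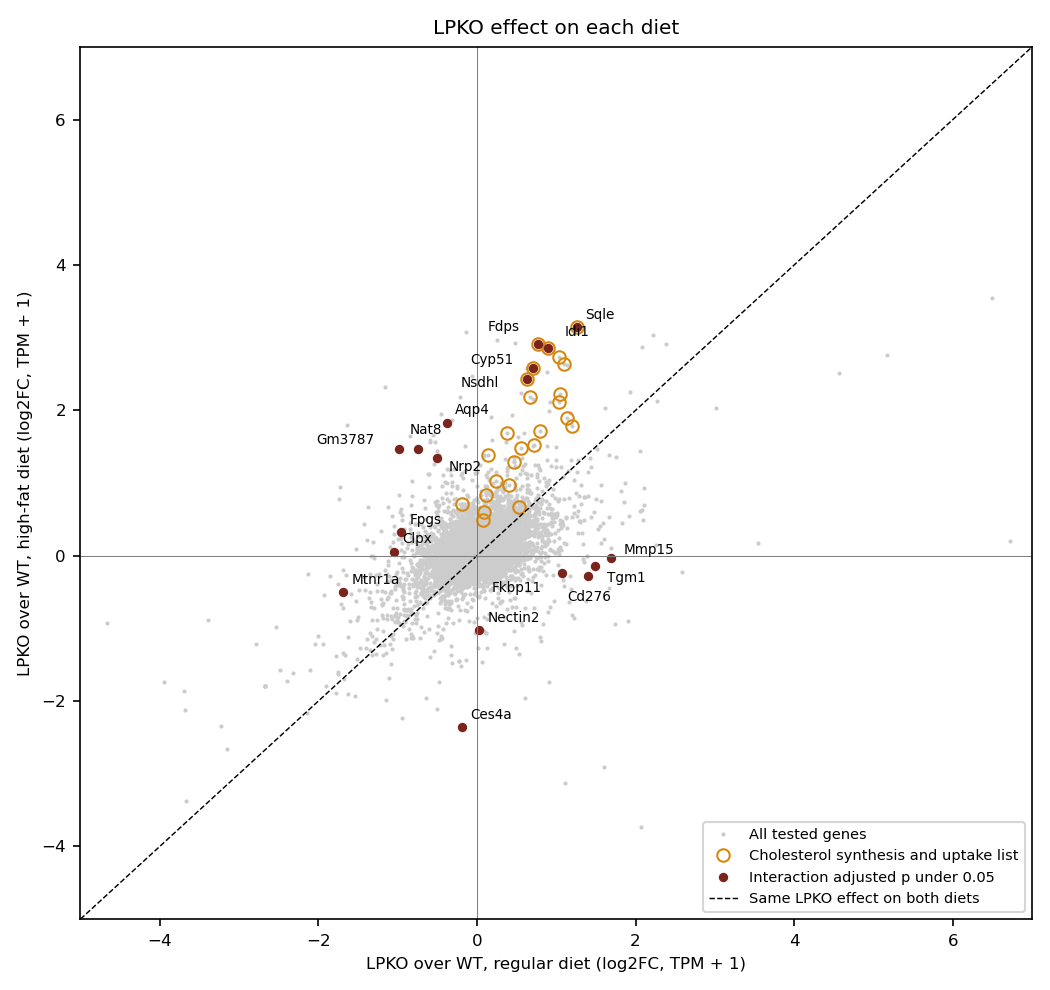
Each point is a tested gene, with the LPKO over WT log2 fold change (TPM + 1) on the high-fat diet on the y axis and on the regular diet on the x axis. Filled points are the 18 genes called for the interaction, open circles the 25 cholesterol genes, and the dashed line marks equal LPKO effects on both diets. The cholesterol genes lie above the line, with a median of 1.72 on the high-fat diet and 0.67 on the regular diet.

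Of 25 listed genes for cholesterol synthesis and uptake, all 25 were tested and 5 were called higher for the interaction: Cyp51, Nsdhl, Fdps, Idi1 and Sqle. That count was 1 with only the compared groups in the fit, 3 with no filter on low values, and 8 with a pseudocount of 0.1, after rescaling, or without Mup and mitochondrial transcripts. No other list had a called member in the fit given here. In GENCODE M21 on GRCm38, Cyp51 lies at chr5:4081145-4104746 on the minus strand, Nsdhl lies at chrX:72918557-72958514 on the plus strand, Fdps lies at chr3:89093588-89101959 on the minus strand, Idi1 lies at chr13:8885501-8892451 on the plus strand and Sqle lies at chr15:59315077-59331192 on the plus strand. The median of the 25 was 0.93, against 0.07 over all tested genes, and 20 of 25 were higher at an unadjusted p under 0.05, against 5.54% of all tested genes. High-fat WT livers had the lowest group mean for 25 of 25, against 63.3% of all tested genes. The summed TPM of the 25 was 1437 to 2420 in high-fat LPKO, 512 to 659 in high-fat WT, 2380 to 3396 in regular-diet LPKO and 1489 to 2476 in regular-diet WT livers.

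Promoters of this pathway's genes are shown because their letters can be set beside the level of each gene. They are the 250 bases before the RefSeq start on GRCm38.p6, 5′ to 3′ on the gene's strand, with CCAAT or its reverse ATTGG, TCACCCCAC (a sterol regulatory element spelling) and AGGTCA or its reverse TGACCT in capitals. The window of Nsdhl lies at chrX:72918271-72918520 on the plus strand, and that of Hmgcs1, the enzyme that starts the mevalonate pathway, at chr13:119690101-119690350 on the plus strand. Both were added after their values were seen. Hmgcs1 was not called for the interaction. Its mean TPM in LPKO livers was 7.17 times the WT mean on the high-fat diet and 1.96 times on the regular diet. The promoter rule named only AGGTCA and its reverse, and CCAAT and TCACCCCAC were added to it. The windows of Idi1 and Cyp51 are not shown, because 105 and 49 of their bases lie inside the gene as GENCODE M21 has it.
Nsdhl: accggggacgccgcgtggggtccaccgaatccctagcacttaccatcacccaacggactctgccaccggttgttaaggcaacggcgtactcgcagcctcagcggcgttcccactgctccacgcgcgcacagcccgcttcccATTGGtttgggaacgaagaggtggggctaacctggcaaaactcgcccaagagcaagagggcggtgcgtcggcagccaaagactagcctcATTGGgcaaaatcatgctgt
Hmgcs1: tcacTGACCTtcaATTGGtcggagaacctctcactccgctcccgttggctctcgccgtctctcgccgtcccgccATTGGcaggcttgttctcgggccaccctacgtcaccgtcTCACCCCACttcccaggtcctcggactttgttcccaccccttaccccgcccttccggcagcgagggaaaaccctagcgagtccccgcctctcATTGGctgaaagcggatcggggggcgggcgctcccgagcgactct

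Searched on both strands, CCAAT was in such a window for 16 of the 17 cholesterol genes with an entry (94.1%), against 37.5% of the 27025 genes in the table. TCACCCCAC was in 1 of 17, Hmgcs1, against 0.555% of all genes. AGGTCA was in 3 of 17, Hmgcs1, Dhcr7 and Insig1, against 15.8%. In Hmgcs1 the CCAAT motif occurred 3 times and in Nsdhl 2 times. These shares rest on RefSeq starts, which for some genes lie inside the GENCODE gene. The matches describe the letters of the window and not binding. The list was made of known pathway genes, whose promoters often hold CCAAT boxes, so its share is no result about the interaction. The 27025 genes were not limited to those tested here.

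Cyp51, the enzyme that removes the 14-alpha methyl group of lanosterol, had 79.9, 85.6 and 59.8 TPM in high-fat LPKO livers, against 13.2, 11.2 and 10.49 TPM in high-fat WT livers. Regular-diet values were 96.2, 73.0 and 112 TPM in LPKO livers, against 42.5, 76.3 and 55.3 TPM in WT livers. High-fat WT libraries were thus far below all 9 others, while regular-diet LPKO and WT libraries overlapped. The interaction was 1.88 (SE 0.26, adjusted p = 0.00538), made of an LPKO over WT difference of 2.58 (SE 0.18, adjusted p = 7.56e-08) on the high-fat diet and 0.70 (SE 0.18, adjusted p = 0.0261) on the regular diet.

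Nsdhl, a dehydrogenase in the removal of the sterol's methyl groups, had 60.3, 89.6 and 46.6 TPM in high-fat LPKO livers and 10.99, 9.16 and 12.8 TPM in high-fat WT livers. On the regular diet it had 74.7, 74.1 and 99.8 TPM in LPKO livers and 40.7, 67.0 and 53.3 TPM in WT livers. LPKO was above WT without overlap on both diets. The interaction was 1.80 (SE 0.27, adjusted p = 0.00723), from a difference of 2.43 (SE 0.19) on the high-fat and 0.63 (SE 0.19) on the regular diet.

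Fdps, which makes farnesyl diphosphate, had 225, 314 and 151 TPM in high-fat LPKO livers and 37.5, 20.5 and 29.5 TPM in high-fat WT livers. For the regular diet the values were 336, 340 and 442 TPM in LPKO livers and 153, 334 and 199 TPM in WT livers. The interaction was 2.15 (SE 0.36, adjusted p = 0.0133), the highest of the list. Regular-diet WT replicate 2 came close to the lowest regular-diet LPKO library, and no LPKO library overlapped the WT libraries of its diet.

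Idi1, the isomerase that supplies Fdps, had 143, 147 and 109 TPM in high-fat LPKO livers and 21.4, 12.8 and 18.9 TPM in high-fat WT livers. Regular-diet values were 237, 168 and 277 TPM in LPKO livers and 83.3, 187 and 108 TPM in WT livers. The interaction was 1.96 (SE 0.36, adjusted p = 0.0323), and regular-diet WT replicate 2 lay within the regular-diet LPKO range.

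Sqle, the squalene epoxidase that opens the sterol branch, had 44.5, 62.5 and 34.6 TPM in high-fat LPKO livers and 5.18, 3.34 and 4.502 TPM in high-fat WT livers. On the regular diet it had 74.6, 62.0 and 81.1 TPM in LPKO livers and 17.4, 47.9 and 30.3 TPM in WT livers. The groups did not overlap on either diet. The interaction was 1.88 (SE 0.36, adjusted p = 0.0411).

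**Figure D2:**
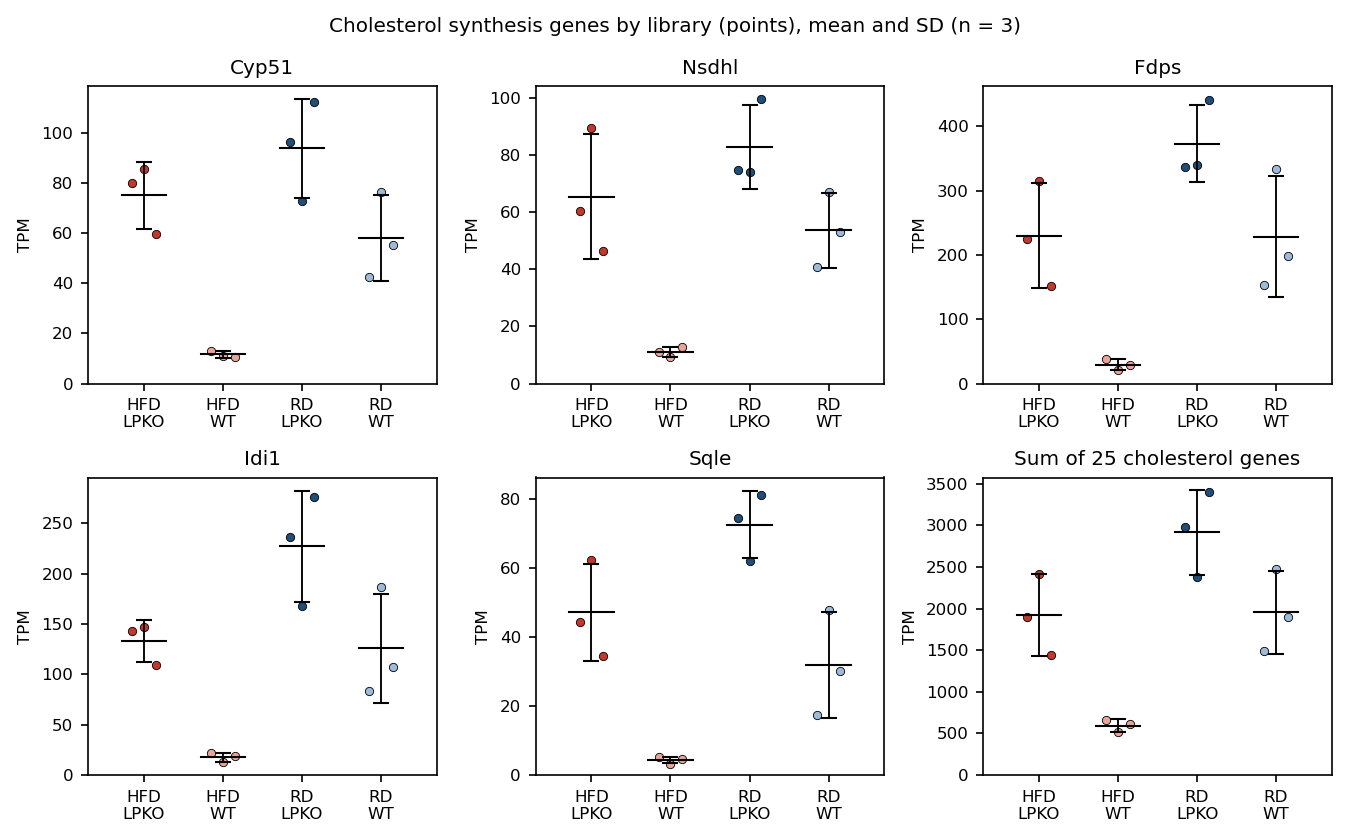
TPM of the 5 called cholesterol genes and the summed TPM of the 25 listed ones in each library (points), with group mean and SD (n = 3), from the left high-fat LPKO, high-fat WT, regular-diet LPKO and regular-diet WT. In every panel the 3 high-fat WT libraries are lowest, with sums of 512 to 659 TPM.

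The other 20 members of the list did not pass for the interaction. Insig1, a sterol-sensing retention protein, had 1.31 (SE 0.27, adjusted p = 0.0582), Pmvk, a mevalonate pathway kinase, had 1.51 (SE 0.32, adjusted p = 0.0628), Tm7sf2, a sterol reductase, had 1.26 (SE 0.27, adjusted p = 0.0628) and Msmo1, a methylsterol oxidase, had 1.54 (SE 0.35, adjusted p = 0.0799). Stard4, a cholesterol transporter, had the lowest value of the list, 0.14 (95% interval -0.50 to 0.78). Srebf2, which encodes SREBP-2, had 0.72 (SE 0.22, adjusted p = 0.273).

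On the high-fat diet alone, 22 of the 25 were higher in LPKO than in WT livers (of all tested genes 4.73% were called, 3.6% higher), with a median of 1.72 against 0.11 over all tested genes. Of the others, Ebp, a sterol isomerase, had 0.49 and Stard4 had 0.67. Libraries did not overlap for 25 of 25 on that diet, against 16.3% of tested genes. On the regular diet alone 6 were higher in LPKO (of all tested genes 5.85% were called, 3.52% higher), with a median of 0.67 against 0.04, and 10 did not overlap, against 19.2%. The 6 became 0 with only the compared groups in the fit, 4 with no filter, 14 after rescaling (median 0.64, against 0.02 over all tested genes) and 13 without Mup and mitochondrial transcripts. It was 2 without regular-diet WT replicate 1, 3 without regular-diet LPKO replicate 3, 10 without high-fat LPKO replicate 3 and 13 without regular-diet WT replicate 2. Among the 6 were Mvd, Sqle, Msmo1, Cyp51 and Idi1.

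The diet difference carries the same numbers along the other axis. In LPKO livers 10 of the 25 were lower on the high-fat than on the regular diet (of all tested genes 18.1% were called, 0.777% higher and 17.3% lower), with a median of -0.60 against -0.22 over all tested genes. The 10 became 4 without high-fat LPKO replicate 3 or regular-diet LPKO replicate 1, 5 without regular-diet LPKO replicate 3, 17 without high-fat LPKO replicate 2, 6 with no filter or with only the compared groups in the fit, and 5 without Mup and mitochondrial transcripts. Of the 25 listed genes, 9 were lower without overlap of libraries, against 39.8% of all tested genes. In WT livers 25 of 25 were lower (of all tested genes 30.8% were called, 1.05% higher and 29.8% lower), with a median of -1.63 against -0.29. Libraries did not overlap for 24, against 46.4%. Rescaling the libraries by median-of-ratios size factors moved the all-gene medians by over 0.1 (high-fat arm 0.11 to -0.01, diet in LPKO -0.22 to -0.01, diet in WT -0.29 to 0.02), and the cholesterol medians were then 1.59, -0.35 and -1.29, with 22 higher, 5 lower and 21 lower. Under that rescaling the split of all calls became 373 higher and 346 lower in place of 380 and 119 on the high-fat diet, 291 and 390 in place of 82 and 1828 for diet in LPKO, and 468 and 368 in place of 111 and 3139 for diet in WT.

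Within each group the library with the highest Mup share had the lowest TPM for most cholesterol genes. Of the 25, this held for 24 in high-fat LPKO replicate 3 and 19 in high-fat WT replicate 2. It held for 24 in regular-diet LPKO replicate 2 and 23 in regular-diet WT replicate 1. In the same order, their size factors, taken over all genes detected in every library, were 0.852, 0.751, 1.082 and 0.980, the lowest of each group. The order was not counted over all tested genes, so it is not shown to be particular to cholesterol genes. With Mup and mitochondrial transcripts taken out and the rest rescaled, 8 of 25 were called for the interaction, the median was 0.85 and 24 of 25 were positive, against -0.06 for the median of all genes. Leaving out 1 library gave 2 called members without regular-diet LPKO replicate 1, high-fat WT replicate 2 or high-fat LPKO replicate 1, and 3 without regular-diet WT replicate 2 or 3, regular-diet LPKO replicate 2, high-fat WT replicate 3 or high-fat LPKO replicate 2. It gave 11 without regular-diet WT replicate 1 and 9 without high-fat LPKO replicate 3, and the median ran from 0.79 to 1.23.

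Most tested markers of several cell types had positive interactions, with no member called, against 62% of all tested genes. They were 12 of 12 stellate cell and matrix, 16 of 16 Kupffer cell and macrophage and 5 of 5 erythrocyte markers. So were 2 of 2 lymphocyte, 11 of 13 sinusoidal endothelial and 3 of 4 infiltrating monocyte markers. Hepatocyte markers were positive in 9 of 11 (81.8%) and cholangiocyte markers in 2 of 4. The 1 adipocyte and 1 pancreatic acinar marker tested were negative. The 12 tested of 16 stellate cell and matrix markers had a median of 0.56 (7 at an unadjusted p under 0.05 by limma), and high-fat WT livers had the lowest mean for 12 of 12. Over all tested genes the median was 0.07, and 5.54% were higher at an unadjusted p under 0.05. High-fat WT livers had the lowest mean for 63.3% of them. Their summed TPM was 136 to 201 in high-fat LPKO, 92.0 to 134 in high-fat WT, 172 to 215 in regular-diet LPKO and 213 to 310 in regular-diet WT livers. Without FoxO1 the stellate list had 3 of 12 positive (median -0.34), against 30.2% of all tested genes. In that interaction 0 were called and 1 was lower at an unadjusted p under 0.05, against 823 of 10551 tested genes. The 16 Kupffer cell and macrophage markers had a median of 0.78 (3 at an unadjusted p under 0.05), and 16 of 16 were positive in the interaction without FoxO1, with sums of 109 to 310, 118 to 257, 147 to 201 and 240 to 376 TPM in the same order. No marker of either list was at 0 in all 12 libraries, their part in the results was not tested, and in pieces of tissue fewer cells of a type and less RNA per cell cannot be told apart.

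Among the other called genes, Nat8, Aqp4, Nrp2 and Gm3787 were also lowest in high-fat WT livers. Nat8, an acetyltransferase-family gene, had 6.10, 13.4 and 8.30 TPM in high-fat LPKO livers and 2.08, 1.90 and 3.99 TPM in high-fat WT livers. For the regular diet the values were 8.39, 12.2 and 6.64 TPM in LPKO livers and 11.6, 21.0 and 15.2 TPM in WT livers. LPKO was above WT without overlap on the high-fat diet, and the groups overlapped on the regular diet. The interaction was 2.22 (SE 0.42, adjusted p = 0.0406).

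Aqp4, a water channel, had 6.61, 4.62 and 4.62 TPM in high-fat LPKO livers and 0.581, 0.862 and 0.811 TPM in high-fat WT livers. Regular-diet values were 2.51, 2.75 and 2.63 TPM in LPKO livers and 1.99, 4.71 and 5.15 TPM in WT livers. The interaction was 2.21 (SE 0.39, adjusted p = 0.0204), with a high-fat LPKO over WT difference of 1.83 (SE 0.27, adjusted p = 3.05e-04). Regular-diet WT replicate 1 lay below all regular-diet LPKO libraries and the other 2 above them.

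Nrp2, a co-receptor for semaphorins and VEGF, was low in all groups and was chosen after its values were seen, like Gm3787 and Mtnr1a. It had 4.56, 4.62 and 4.16 TPM in high-fat LPKO livers and 1.40, 0.549 and 1.69 TPM in high-fat WT livers, then 2.71, 2.04 and 2.52 TPM in regular-diet LPKO livers and 3.42, 3.89 and 4.28 TPM in regular-diet WT livers. The order of LPKO and WT was opposite on the diets, without overlap on either, and the interaction was 1.85 (SE 0.28, adjusted p = 0.00723). The regular-diet difference alone, -0.51 (SE 0.20, adjusted p = 0.151), did not pass. Gm3787, annotated as a transcribed processed pseudogene, had 2.46 (SE 0.47, adjusted p = 0.0406), and reads it shares with a parent gene could not be separated here.

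Clpx, Fpgs and Mtnr1a had their highest values in regular-diet WT livers, as had Nat8 and Gm3787, by group mean. Clpx, the ATPase subunit of the mitochondrial ClpXP protease, had 29.3, 35.1 and 20.7 TPM in high-fat LPKO livers and 25.04, 28.1 and 27.0 TPM in high-fat WT livers. On the regular diet it had 38.4, 28.6 and 32.6 TPM in LPKO livers and 76.6, 64.4 and 67.3 TPM in WT livers. Only the regular-diet difference passed, -1.05 (SE 0.16, adjusted p = 2.55e-04), against 0.06 (SE 0.16) on the high-fat diet, and the interaction was 1.10 (SE 0.22, adjusted p = 0.0422).

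Fpgs, which adds glutamates to folates, had 63.8, 89.5 and 55.0 TPM in high-fat LPKO livers and 55.8, 53.6 and 53.0 TPM in high-fat WT livers. For the regular diet the values were 48.8, 57.3 and 44.4 TPM in LPKO livers and 113, 86.9 and 95.3 TPM in WT livers. The regular-diet groups did not overlap and the high-fat groups did, and the interaction was 1.28 (SE 0.25, adjusted p = 0.0422). Mtnr1a, a melatonin receptor, had 0.502, 0.127 and 0.126 TPM in high-fat LPKO livers, 0.787, 0.807 and 0.686 TPM in high-fat WT livers, at most 0.208 TPM in regular-diet LPKO livers and 2.06, 2.88 and 2.95 TPM in regular-diet WT livers (interaction 1.19, SE 0.24, adjusted p = 0.0422).

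Among the lower genes, Mmp15, Cd276, Tgm1 and Fkbp11 were highest in regular-diet LPKO livers. Mmp15, a membrane-bound matrix metalloproteinase, had 10.9, 14.7 and 12.4 TPM in high-fat LPKO livers and 13.5, 12.8 and 12.4 TPM in high-fat WT livers. Regular-diet values were 44.2, 28.1 and 36.4 TPM in LPKO livers and 8.54, 11.3 and 11.5 TPM in WT livers. The regular-diet LPKO libraries were above all 9 others, and the interaction was -1.72 (SE 0.29, adjusted p = 0.0133).

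Cd276, which encodes the immune checkpoint protein B7-H3, had 1.31, 1.64 and 1.61 TPM in high-fat LPKO livers, 2.36, 1.26 and 2.68 TPM in high-fat WT livers, 7.24, 4.77 and 6.90 TPM in regular-diet LPKO livers and 1.59, 1.82 and 1.82 TPM in regular-diet WT livers. The interaction was -1.67 (SE 0.27, adjusted p = 0.0114). Tgm1, a transglutaminase, had 8.54, 4.47 and 7.43 TPM in high-fat LPKO livers, 6.74, 5.99 and 9.78 TPM in high-fat WT livers, 19.1, 16.4 and 16.8 TPM in regular-diet LPKO livers and 4.88, 5.55 and 6.34 TPM in regular-diet WT livers (interaction -1.62, SE 0.32, adjusted p = 0.0422). Fkbp11, a peptidyl-prolyl isomerase of the secretory pathway, had 17.0, 15.8 and 15.95 TPM in high-fat LPKO livers, 19.1, 21.0 and 18.2 TPM in high-fat WT livers, 30.6, 27.7 and 26.7 TPM in regular-diet LPKO livers and 10.7, 16.2 and 12.4 TPM in regular-diet WT livers (interaction -1.31, SE 0.25, adjusted p = 0.0406). For these 3 genes too the regular-diet LPKO libraries were above all others.

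Ces4a, a carboxylesterase, was high in high-fat WT livers. It had 0.607, 0.455 and 0.958 TPM in high-fat LPKO livers and 8.89, 10.96 and 4.26 TPM in high-fat WT livers, and 0.221, 0.278 and 0.0969 TPM in regular-diet LPKO livers and 0.384, 0.390 and 0.331 TPM in regular-diet WT livers. It was above 1 TPM in the 3 high-fat WT libraries only, and the interaction was -2.17 (SE 0.44, adjusted p = 0.0442). Nectin2, a cell adhesion molecule, had 15.99, 14.8 and 13.6 TPM in high-fat LPKO livers, 29.1, 32.0 and 32.1 TPM in high-fat WT livers, 29.3, 21.8 and 27.4 TPM in regular-diet LPKO livers and 27.8, 24.7 and 24.1 TPM in regular-diet WT livers. The 3 high-fat LPKO libraries were the lowest, and the interaction was -1.05 (SE 0.21, adjusted p = 0.0422).

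**Figure D3:**
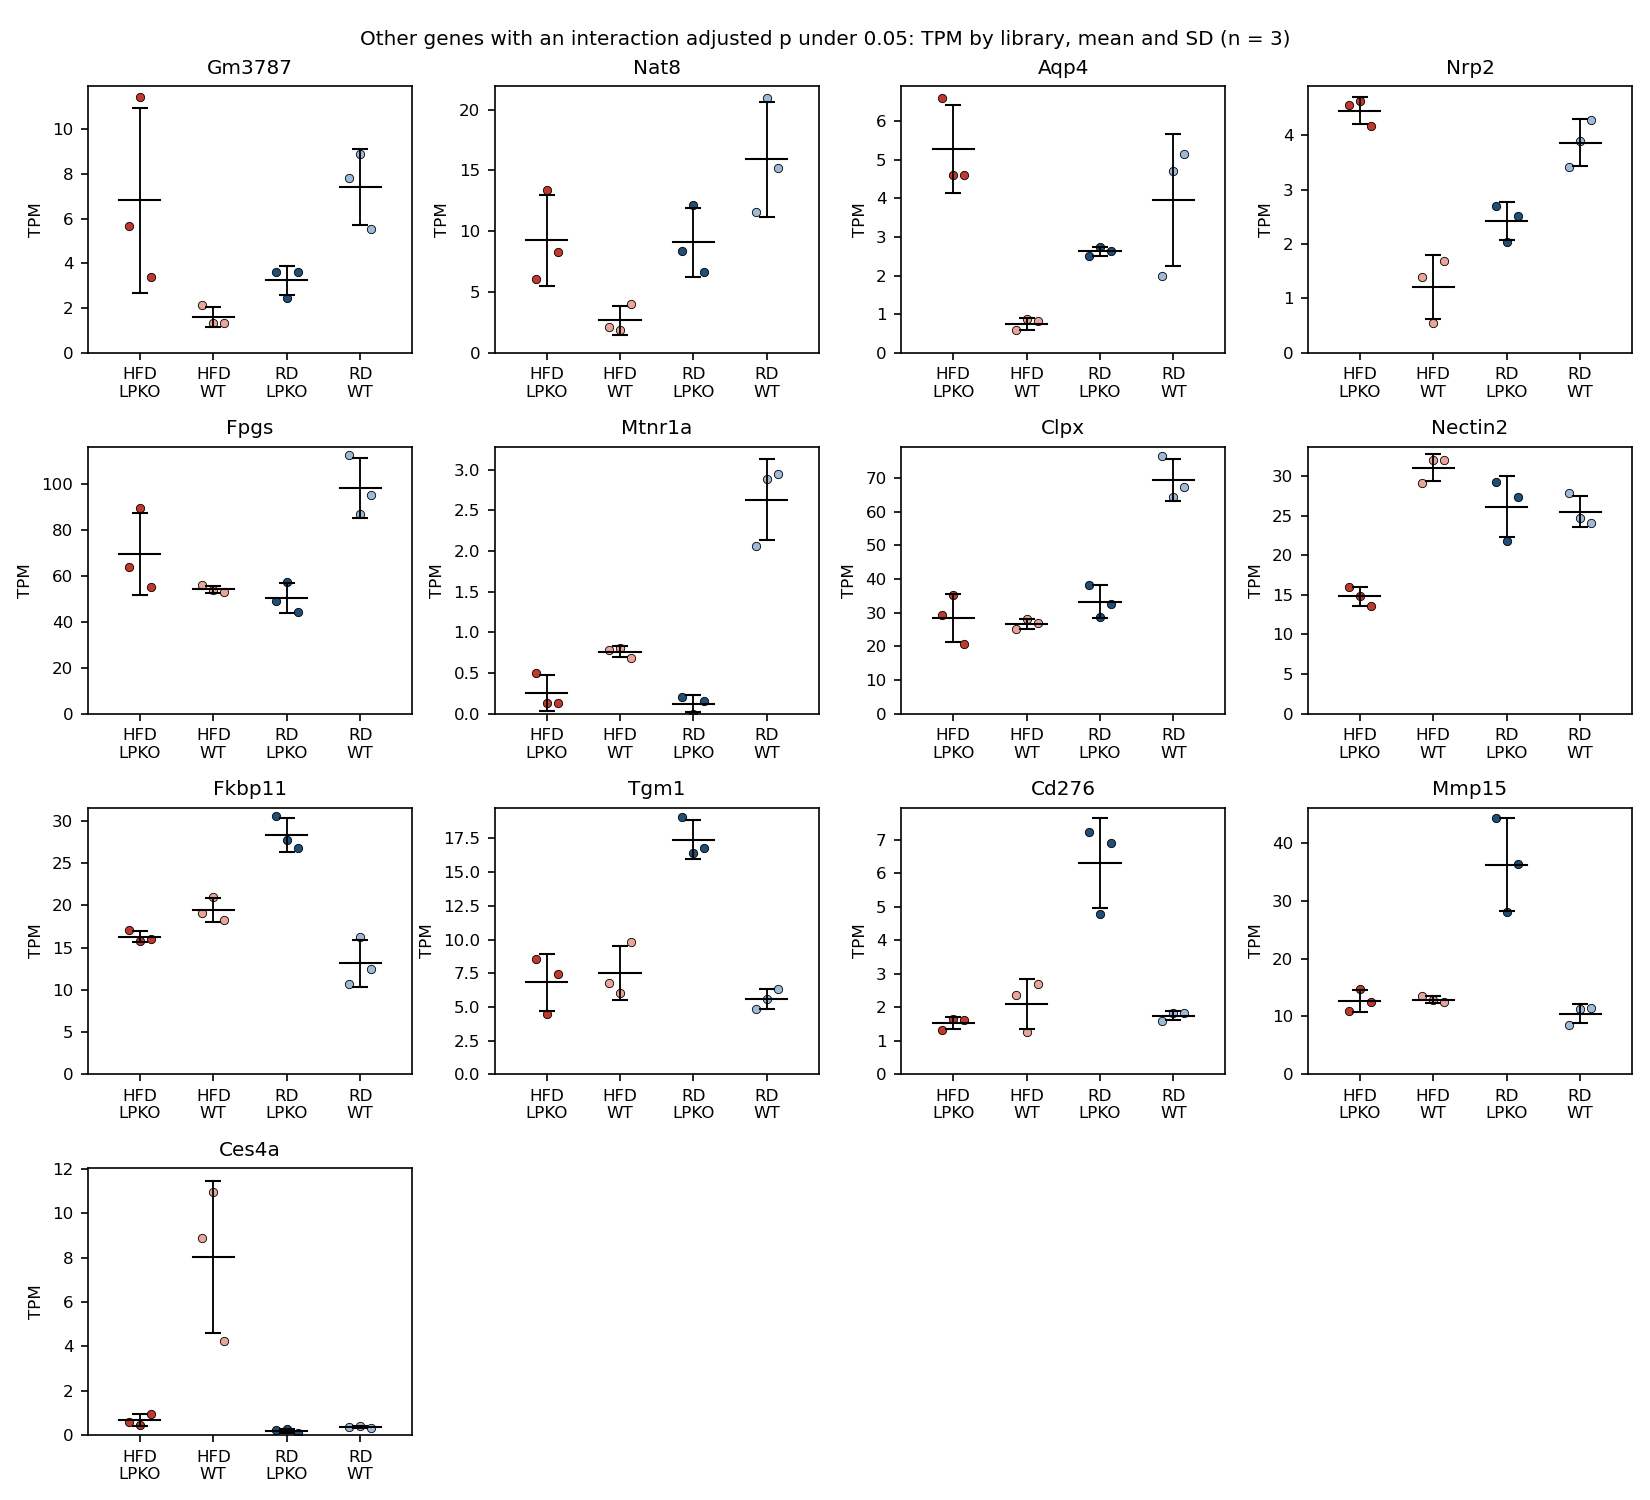
TPM by library (points), group mean and SD (n = 3) for the 13 called genes outside the cholesterol list, from the left high-fat LPKO, high-fat WT, regular-diet LPKO and regular-diet WT, ordered from the highest interaction to the lowest. Nectin2 is low in high-fat LPKO, Clpx is high in regular-diet WT, Mmp15 is high in regular-diet LPKO and Ces4a is high in high-fat WT.

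On the same build, Nat8 lies at chr6:85830388-85832082 on the minus strand, Nrp2 lies at chr1:62703285-62818695 on the plus strand, Clpx lies at chr9:65294260-65330658 on the plus strand, Fpgs lies at chr2:32682609-32704145 on the minus strand and Mtnr1a lies at chr8:45069137-45088506 on the plus strand. Of the lower genes, Ces4a lies at chr8:105131800-105150109 on the plus strand, Mmp15 lies at chr8:95352268-95375080 on the plus strand, Cd276 lies at chr9:58524298-58555437 on the minus strand, Tgm1 lies at chr14:55700009-55713926 on the minus strand, Fkbp11 lies at chr15:98724366-98728198 on the minus strand and Nectin2 lies at chr7:19716644-19750483 on the minus strand. Promoter windows of Nat8, at chr6:85832280-85832529 on the minus strand, and of Ces4a, at chr8:105131550-105131799 on the plus strand, both taken by the naming rule, are given in the same form. That of Mmp15 is not shown, since 28 of its bases lie inside the GENCODE gene. Nat8 has 2 RefSeq starts and the one nearer the GENCODE M21 gene start was used.
Nat8: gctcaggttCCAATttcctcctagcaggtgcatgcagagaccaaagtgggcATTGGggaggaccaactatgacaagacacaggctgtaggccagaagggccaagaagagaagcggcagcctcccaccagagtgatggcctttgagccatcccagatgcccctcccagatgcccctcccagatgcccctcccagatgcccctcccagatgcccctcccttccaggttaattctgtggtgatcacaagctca
Ces4a: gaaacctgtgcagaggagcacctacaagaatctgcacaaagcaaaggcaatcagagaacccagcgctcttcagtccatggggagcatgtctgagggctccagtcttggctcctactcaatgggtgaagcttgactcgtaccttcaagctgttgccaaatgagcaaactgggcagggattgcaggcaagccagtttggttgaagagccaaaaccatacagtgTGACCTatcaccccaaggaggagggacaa
Ces4a held 1 AGGTCA match and no CCAAT, and Nat8 held 2 CCAAT matches and no AGGTCA.

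Many genes of known PPARα target pathways were lower in LPKO livers on each diet, and a few were higher. None of their genes passed for the interaction. Of 22 genes for mitochondrial fatty acid oxidation and the carnitine shuttle, 10 were lower on the high-fat diet (background 1.13%) and 14 on the regular diet (background 2.33%), with medians of -0.48 and -0.66 and an interaction median of 0.18. Limma called 0 of 22 for the interaction, and 3 were higher and 0 lower at an unadjusted p under 0.05 (background 5.54% and 2.53%). The interaction was positive for 19 of 22 (86.4%), against 62% of all tested genes, with values from -0.09 to 0.93. Etfdh, which passes electrons from fatty acid oxidation to ubiquinone, had 49.7, 53.4 and 44.2 TPM in high-fat LPKO livers, 118, 116 and 114 TPM in high-fat WT livers, 68.3, 66.1 and 71.1 TPM in regular-diet LPKO livers and 163, 148 and 158 TPM in regular-diet WT livers. Its interaction was -0.05, with a 95% interval of -0.38 to 0.27, against the direction of most of the list.

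Decr2, a peroxisomal reductase, had differences of -1.88 (SE 0.15, adjusted p = 1.79e-07) and -1.78 (SE 0.15, adjusted p = 3.84e-07), with an interaction of -0.10 (95% interval -0.55 to 0.35). These intervals bound the change in the LPKO effect for Etfdh and Decr2 and do not show that the effects were equal. Most of each list went the other way, with 22 of 25 peroxisomal genes (88%) positive for the interaction.

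Some target genes had large interaction values that did not pass. Cyp4a14, a fatty acid hydroxylase, had 10.1, 8.76 and 2.08 TPM in high-fat LPKO livers, 17.5, 3.35 and 27.5 TPM in high-fat WT livers, 16.9, 8.81 and 38.6 TPM in regular-diet LPKO livers and 808, 288 and 482 TPM in regular-diet WT livers. Only the regular-diet WT libraries stood high, and the interaction was 3.74 (SE 0.99, adjusted p = 0.174), the highest of all tested genes but with a wide error. Cyp4a10, of the same family, had 2.22 (SE 0.77, adjusted p = 0.357).

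Cd36, a fatty acid transporter, had 10.4, 15.9 and 4.51 TPM in high-fat LPKO livers, 5.32, 3.22 and 4.52 TPM in high-fat WT livers, 10.4, 10.03 and 13.2 TPM in regular-diet LPKO livers and 43.0, 30.5 and 46.0 TPM in regular-diet WT livers, with an interaction of 2.68 (SE 0.58, adjusted p = 0.0642). Acot1, a cytosolic acyl-CoA thioesterase, had 1.82 (SE 0.42, adjusted p = 0.0939). Of 11 acyl-CoA thioesterases tested, 1 was called higher and 1 lower in LPKO on the high-fat diet, with a median of 0.24. On the regular diet 0 were called higher and 2 lower, with a median of -0.48. For the interaction 0 of the 11 were called, and 4 were higher and 0 lower at an unadjusted p under 0.05. Of the 27 other known PPARα targets tested, 10 were lower in LPKO on the high-fat and 16 on the regular diet, where 1 was higher. For the interaction 0 were called (5 under an unadjusted p of 0.05, all higher). Of 25 peroxisomal genes, 4 and 11 were lower, and 1 was higher on the regular diet. The interaction had 0 called there, with 3 higher and 1 lower under an unadjusted p of 0.05. Of 14 microsomal hydroxylation genes, 2 and 6 were lower, and 1 was higher on the high-fat diet. There 0 were called for the interaction and 4 were higher under an unadjusted p of 0.05. Among all tested genes, 3.6% were called higher and 1.13% lower on the high-fat diet, and 3.52% and 2.33% on the regular diet. The interaction was higher for 5.54% and lower for 2.53% of them at an unadjusted p under 0.05.

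**Figure D4:**
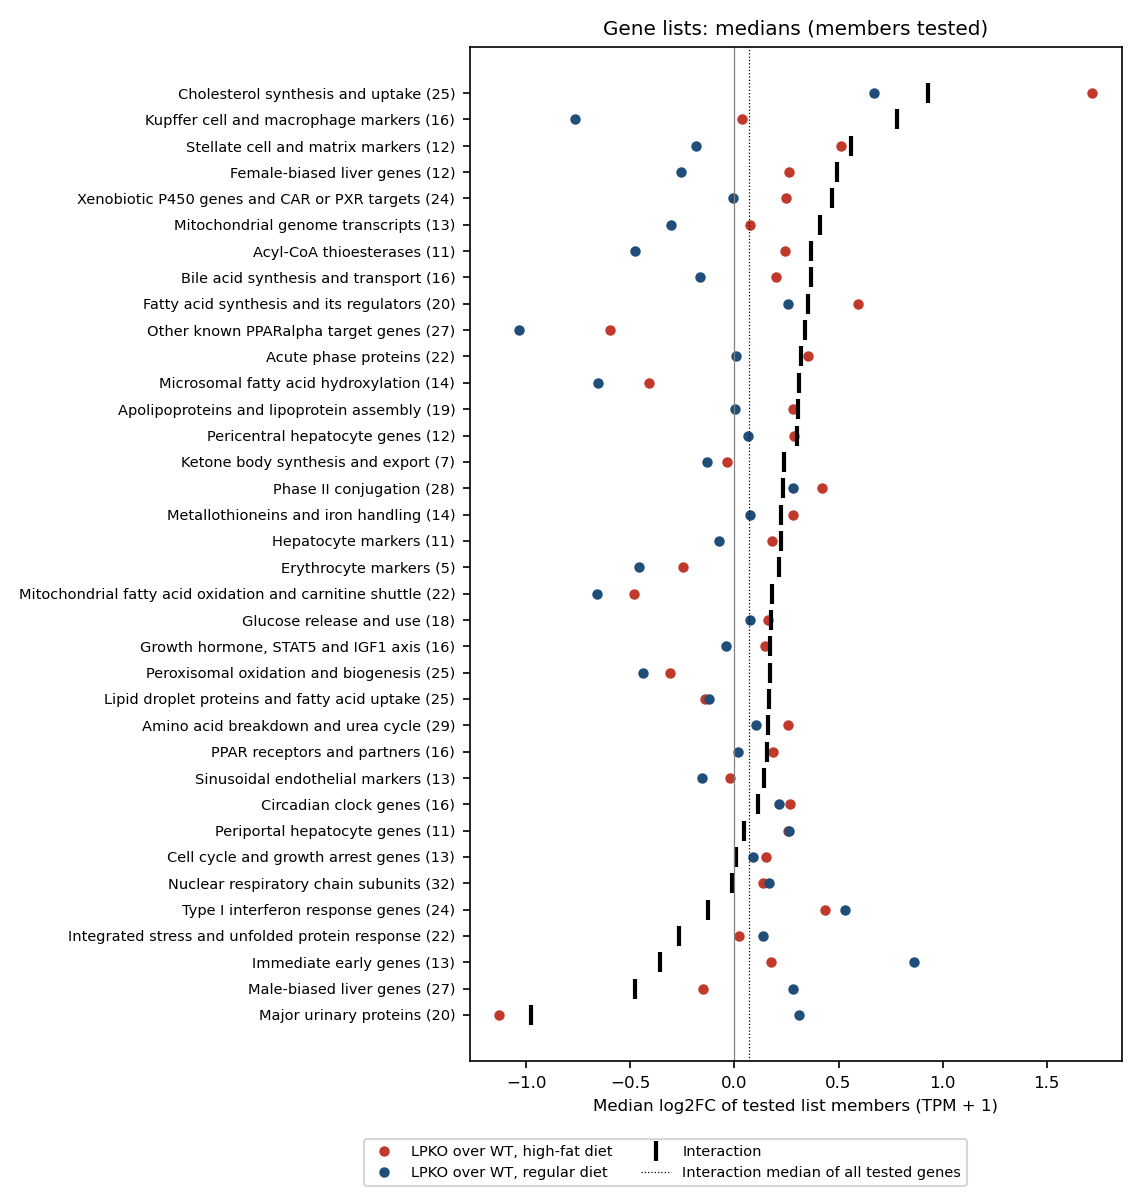
Median log2 fold change (TPM + 1) of each gene list with at least 5 tested members, for LPKO over WT on the high-fat diet (red), on the regular diet (blue) and for the interaction (black bars); the dotted line is the interaction median of all tested genes, 0.07. The cholesterol list has the highest interaction median, 0.93, and the major urinary proteins the lowest, -0.98; interaction calls were in the cholesterol list.

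Fatty acid synthesis, which shares enzymes of acetyl-CoA supply with cholesterol synthesis, had 0 of 20 genes called for the interaction and 7 higher at an unadjusted p under 0.05 (background 5.54%), with a median of 0.35 against 0.07. Scd1, the stearoyl-CoA desaturase, had 369, 1569 and 389 TPM in high-fat LPKO livers, 141, 16.8 and 148 TPM in high-fat WT livers, 1291, 1055 and 1180 TPM in regular-diet LPKO livers and 1074, 1104 and 1807 TPM in regular-diet WT livers. Libraries of each high-fat group differed widely among themselves, and the interaction was 3.22 (SE 0.93, adjusted p = 0.229). Fads1, a fatty acid desaturase, had 0.97 (adjusted p = 0.196). On the high-fat diet 7 of the 20 were higher in LPKO (background 3.6%), and on the regular diet 3 were higher (background 3.52%) and 1 lower (background 2.33%).

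The same interaction could be computed without FoxO1, as (high-fat LFPKO minus high-fat LFKO) minus (regular-diet LFPKO minus regular-diet LFKO), from 12 libraries that the first does not use. It called 13 genes (0.123%), 3 higher (0.0284%) and 10 lower (0.0948%), and 0 of the 18 genes above were among them. That count ran from 1 to 20 when 1 library was left out. Of the 18, 9 had the same sign (50%), against 42.8% of all tested genes. They were 4 of the 12 higher genes (33.3%) and 5 of the 6 lower ones (83.3%). Among all tested genes 30.2% were positive without FoxO1, and 7364 of 10551 were negative. Of the 25 cholesterol genes, limma called 0, and 2 were lower at an unadjusted p under 0.05, against 823 of 10551 tested genes. The median of the 25 was -0.29, against -0.11 over all tested genes, and 3 (12%) were positive, against 30.2%. Their summed TPM was 1081 to 1202 in high-fat LFPKO, 1178 to 1482 in high-fat LFKO, 2514 to 2831 in regular-diet LFPKO and 2240 to 2557 in regular-diet LFKO livers. The high-fat LFKO sums were above the 512 to 659 TPM of high-fat WT livers, and the Mup share differed as well, at 6.5% to 17.7% in high-fat LFKO against 20.1% to 30.7% in high-fat WT libraries. Among the high-fat LFKO libraries the sums of 1178, 1364 and 1482 TPM went with Mup shares of 17.7%, 10.9% and 6.5%. Mup took 20.2% to 28.5% in high-fat LFPKO, 12.6% to 13.9% in regular-diet LFPKO and 5.06% to 6.87% in regular-diet LFKO libraries, and the part of these shares in the result was not tested.

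The difference of the 2 interactions, FoxO1 intact minus FoxO1 deleted, passed for 9 genes (0.0853%), 7 higher (0.0663%) and 2 lower (0.019%). Of these, 4 were cholesterol genes, all higher: Fdps by 2.81 (SE 0.51, adjusted p = 0.0454), Idi1 by 2.67 (SE 0.51, adjusted p = 0.0454), Nsdhl by 2.48 (SE 0.39, adjusted p = 0.0154) and Cyp51 by 2.39 (SE 0.37, adjusted p = 0.0154). Sqle had 2.25 (SE 0.52, adjusted p = 0.0987). The median difference over the 25 was 1.22, against 0.18 over all tested genes. At an unadjusted p under 0.05, 18 of the 25 were higher, against 988 of 10551 tested genes. The 12 stellate cell and matrix markers were also positive for this difference in 12 of 12 (median 0.99), against 7446 of 10551 tested genes. Of these markers 0 were called and 8 were higher at an unadjusted p under 0.05, and their part in the result was not tested. The count of 9 was moved by over 1.5 times by leaving out any 1 of 23 libraries, all but regular-diet LPKO replicate 2. It was 91 without high-fat LPKO replicate 3, 43 without high-fat LFPKO replicate 3, 37 without high-fat LFKO replicate 1, 15 without regular-diet WT replicate 1, and 2 to 5 without any 1 of the others.

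**Figure D5:**
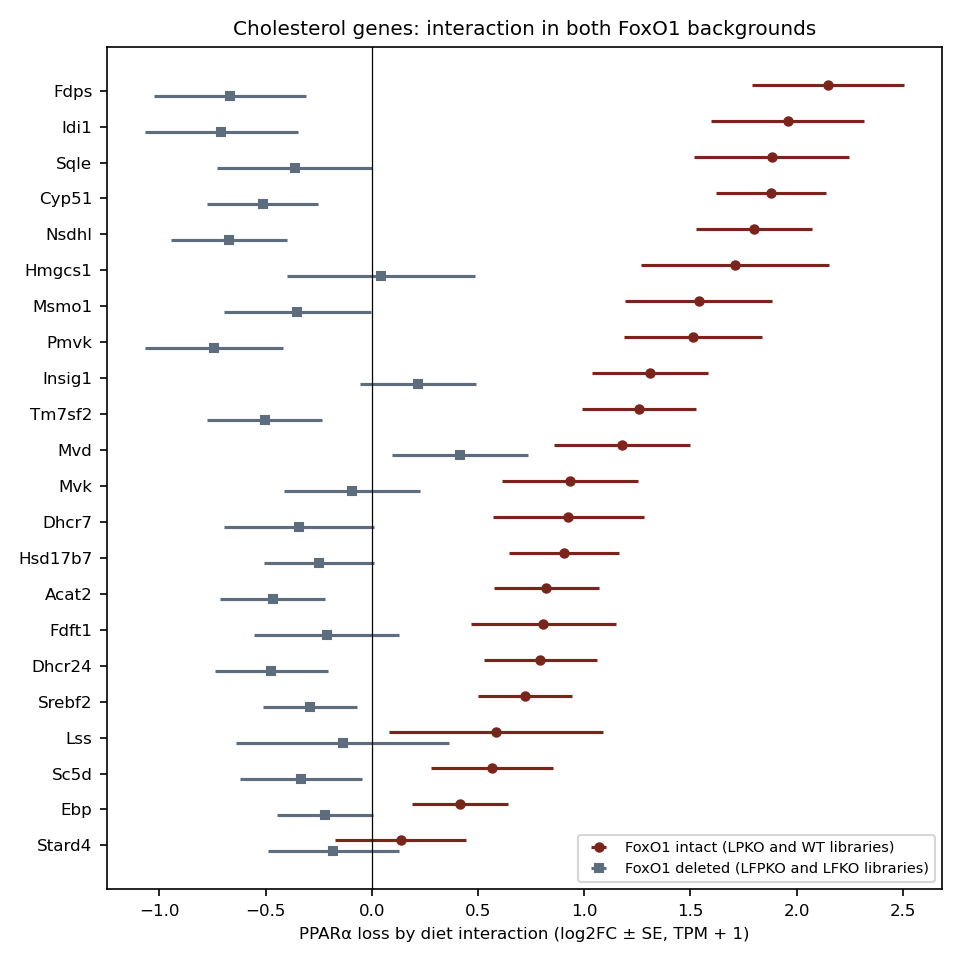
PPARα loss by diet interaction (log2 fold change of TPM + 1, ± SE) of 22 of the 25 cholesterol genes in FoxO1-intact livers (circles, LPKO and WT libraries) and in FoxO1-deleted livers (squares, LFPKO and LFKO libraries). All circles lie above 0, and the medians over the 25 are 0.93 with FoxO1 and -0.29 without it. In fits not drawn, 24 of 25 were positive without Mup and mitochondrial transcripts, without regular-diet WT replicate 2 or without high-fat LPKO replicate 1.

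The other 5 genes of that difference were outside the pathway. Fmo2, a flavin monooxygenase, had an interaction of 1.39 (SE 0.39) with FoxO1 and -1.72 (SE 0.39) without it, a difference of 3.10 (SE 0.55, adjusted p = 0.0454). Susd1 and Nadk2, a mitochondrial NAD kinase, differed by 1.88 (SE 0.35) and 1.52 (SE 0.28). Inhbe, which encodes a liver inhibin subunit, and Cyp2c69, a cytochrome P450 gene, differed by -2.96 (SE 0.56) and -3.98 (SE 0.72), each with an adjusted p of 0.0454. Cyp2c69 averaged 0.317 TPM in regular-diet LFPKO livers against 36.6 TPM in regular-diet LFKO livers, and was at or under 3.07 TPM in the 12 FoxO1-intact libraries, and it belongs to a family of near-identical genes between which reads may be split.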

How the data were processed

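Liver mRNA was sequenced from TruSeq stranded libraries of Trizol-extracted, snap-frozen tissue, per the labels' protocols. The deposited TPM values are per gene and come from kallisto against GRCm38 or mm10, per the submitters' processing notes, which carry no version numbers. TPM keep no read counts, so depth and the precision it gives are unknown. The 1 line without a gene name, 0.0104% to 0.025% of TPM, was left out. Groups came from the labels.

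Genes with a mean of at least 1 TPM over 24 libraries were fitted on log2(TPM + 1) with limma 3.58.1 (R 4.3.3; 8 group means, variance trend, 16 residual df, two-sided). P-values were adjusted by Benjamini-Hochberg over all 10551 genes and called under 0.05. Fold changes on this scale understate the change of low genes. The test was also run on simulated data with interactions planted in 200 genes. It called 67% of those of 1 on the log2 scale and 92% of the larger ones, with 11 false among 170 calls. The simulated noise was independent between genes, so shifts shared by a whole library, such as the Mup share, were not covered. Alternatives changed the pseudocount, filter, scaling, groups, replicate block, variance trend and libraries.

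Gene lists, lists of markers and the comparison were chosen with earlier results of these data known. The text names called genes with a mean of at least 5 TPM in a group and no predicted or pseudogene symbol, up to 15 each way, then for each list its called members, up to 4 with the smallest adjusted p and those against the list. Promoters came from RefSeq (GRCm38.p6), for the 2 highest and 2 lowest named genes with an entry, shown where the window lay outside the annotated gene. A few named genes are not reported here.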

Additional observations from a re-analysis of the deposited data

Results flagged for a closer look

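Every gene called for the interaction had an LPKO effect that differed between the diets by the test of that difference. The values were 2.46 for Gm3787, 2.22 for Nat8, 2.21 for Aqp4, 2.15 for Fdps, 1.96 for Idi1, 1.88 for Sqle and for Cyp51, 1.85 for Nrp2, 1.80 for Nsdhl, 1.28 for Fpgs, 1.19 for Mtnr1a and 1.10 for Clpx. On the lower side they were -1.05 for Nectin2, -1.31 for Fkbp11, -1.62 for Tgm1, -1.67 for Cd276, -1.72 for Mmp15 and -2.17 for Ces4a.

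For 9 genes the interaction differed between livers with and without FoxO1, again by a test of that difference. The differences were 3.10 for Fmo2, 2.81 for Fdps, 2.67 for Idi1, 2.48 for Nsdhl, 2.39 for Cyp51, 1.88 for Susd1, 1.52 for Nadk2, -2.96 for Inhbe and -3.98 for Cyp2c69. With 3 libraries in a group no single library was tested for standing apart gene by gene.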

How the results depend on the processing

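The 18 interaction calls became 10 with no filter on low values, 49 after median-of-ratios rescaling (17 shared), 50 without Mup and mitochondrial transcripts, 8 with a replicate block and 56 with the replicate block and rescaling together, an alternative added after the data were seen. For the interaction without FoxO1 the count of 13 became 0 with a pseudocount of 0.1, 5 with no filter, 2 without Mup and mitochondrial transcripts, 3 with the compared groups alone, 4 with the replicate block and 1 with no variance trend. For the difference of the interactions the count of 9 became 4, 17, 2, 5 and 22 with no filter, without Mup and mitochondrial transcripts, with the replicate block, with no variance trend, and with the block and rescaling. The high-fat arm's 499 became 147 with the compared groups alone. The regular-diet arm's 617 became 995 after rescaling, 965 without Mup and mitochondrial transcripts and 1000 with the block and rescaling, and in the same order diet in LPKO (1910) became 681, 755 and 672 and diet in WT (3250) 836, 841 and 795. Leaving out 1 library gave 3 to 60 for the interaction, 1 to 20 without FoxO1, 2 to 91 for their difference, 198 to 889 on the high-fat diet, 312 to 777 on the regular diet, 576 to 2530 for diet in LPKO and 920 to 3978 for diet in WT. Of 672 estimates for the named genes under an alternative, 202 lost the call, 1 gained it and 0 reversed. The 672 include Ppara (24 fits without 1 library and 10 other alternatives) and Foxo1 (24 and 9). Neither was called in the fit given here, so neither had a call to lose. Apart from cholesterol synthesis, 10 lists without a call gained 1 each under 1 to 5 settings, among them other known PPARα targets, lipid droplet proteins and type I interferon genes. The 5 cholesterol calls became 3 with the replicate block. The cause of these shifts was not tested. Same-numbered libraries did not vary together (correlations of -0.23 to 0.13, 1 of 18 over 0.1). Of 12 libraries, 2 correlated best with their own number. The labels do not say what a number shares, and these values cannot show that there was no pairing. The block is given as an alternative only. Depth is unknown and 3 libraries a group limit the precision.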

Other observations

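Type I interferon response genes were higher in LPKO than in WT livers in 4 of 24 tested on the high-fat diet (background 3.6%) and in 11 of 24 on the regular diet (background 3.52%), with medians of 0.43 and 0.53. The interaction called 0 of 24 by limma, 4 were lower at an unadjusted p under 0.05 (background 2.53%), and the median was -0.13 against 0.07 over all tested genes. With a pseudocount of 0.1, after rescaling, or without Mup and mitochondrial transcripts, 1 of the 24 was called lower. Usp18, which removes the ubiquitin-like protein ISG15, had 9.91, 9.61 and 12.2 TPM in high-fat LPKO livers, 5.57, 6.55 and 7.24 TPM in high-fat WT livers, 18.2, 11.7 and 14.2 TPM in regular-diet LPKO livers and 1.99, 3.83 and 2.33 TPM in regular-diet WT livers. LPKO libraries were above WT libraries on both diets, with an interaction of -1.45 (SE 0.31, adjusted p = 0.0599).

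All 13 transcripts of the mitochondrial genome had a positive interaction (median 0.41), against 62% of all tested genes, with 0 called and 7 at an unadjusted p under 0.05 (background 5.54% higher and 2.53% lower). Of 20 major urinary protein genes, which are near-identical copies between which reads may be split, 2 had a positive interaction (median -0.98), with 0 called and 7 lower and 1 higher at an unadjusted p under 0.05. Of 13 immediate early genes 2 were positive (median -0.36), with 0 called and 3 lower and 1 higher at an unadjusted p under 0.05, while 4 of 13 were higher in LPKO on the regular diet (background 3.52%) and 0 on the high-fat diet (background 3.6%). Of 22 genes of the integrated stress and unfolded protein response 6 were positive (median -0.27), with 0 called and 5 lower at an unadjusted p under 0.05.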
